A study of Sus scrofa with 36 samples.

Results

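The genes described here encode the enzymes of the tricarboxylic acid (TCA) cycle, the pyruvate dehydrogenase complex that feeds it, and the mitochondrial breakdown of branched-chain and other amino acids. The 36 genes were chosen by name and enzyme role, not by a threshold on measured values. All 36 were found among the 25880 genes of the count table, each under 1 Ensembl pig identifier, and all 36 passed the filter on low counts that left 14537 genes. Of the 36, 18 are grouped as TCA cycle genes, and 4 encode the pyruvate dehydrogenase complex. The 18 include MDH1, whose enzyme is the cytosolic malate dehydrogenase and not that of the cycle itself. The other 14 act in amino acid catabolism: 4 at the entry of the branched-chain amino acids, 3 in the leucine branch, 3 in the valine branch, 2 as subunits of propionyl-CoA carboxylase, and 2 in lysine and proline breakdown. Genes to which the results return most often include BCKDHB and IVD on pig chromosome 1, ALDH6A1 on chromosome 7, MDH1 on chromosome 3, CS on chromosome 5 and PDHA1 on chromosome X, as the count table places them.

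The TCA cycle oxidises acetyl-CoA in the mitochondrial matrix and hands electrons to the respiratory chain. Pyruvate dehydrogenase supplies it with acetyl-CoA from glucose and lactate, and its subunit DLD is shared with the 2-oxoglutarate and branched-chain ketoacid dehydrogenases. Leucine, isoleucine and valine lose their amino group to BCAT2 and are committed to oxidation by the branched-chain ketoacid dehydrogenase (BCKDHA, BCKDHB, DBT). The carbon then enters the cycle as acetyl-CoA or, through propionyl-CoA carboxylase, as succinyl-CoA. The heart around birth moves from glycolysis towards mitochondrial oxidation, and cardiomyocytes are its main site of oxidative metabolism.

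The study sequenced polyadenylated RNA from left ventricles of 24 Yorkshire-landrace pigs, in 36 libraries. Surgery was done at 2 days of age (Young) or 14 days of age (Old), and hearts were taken 1 day (Early) or 7 days (Late) later, so that age at harvest was 3 days in Young Early, 9 in Young Late, 15 in Old Early and 21 in Old Late. In 12 pigs the branches of the left anterior descending and left circumflex coronary arteries were tied off for good, and each of these hearts gave a library from the infarct zone (IZ) and another from the border zone (BZ). The 12 sham pigs each gave a library from the anterior left ventricular wall. The pigs were anaesthetised and ventilated, and all received ketoprofen and enrofloxacin after surgery. Each of the 12 groups (Young or Old, Early or Late, and Sham, BZ or IZ) holds 3 libraries from 3 pigs.

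Library totals ran from 8113200 counts, in Young Late Sham replicate 2, to 39789874. Over all libraries the member with the fewest counts was PDHX, at 18 counts in 1 library, and the median count of a member over the 36 libraries lay between 305 (DBT) and 25410 (MDH2). Mitochondrially encoded genes took 9.75 to 44.1% of the counts. Young Early BZ replicate 2 stood apart, with the highest total, 10.1% mitochondrially encoded counts and a mean correlation of 0.899 with the other libraries of its group. Library preparation batch followed the groups: Young Early was prepared in batch 1, Old Early in batch 2 and Old Late in batch 3, while Young Late was split between batches 1 and 2. Of 10 cardiomyocyte markers, 6 were found by name (TNNT2, MYH6, ACTC1, MYL2, MYL3 and RYR2), and their summed level in sham hearts was 71669 to 110484 CPM (counts scaled to a common library size) in Young Late and 76246 to 84544 in Old Late.

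Levels below are CPM after TMM scaling, which sets the bulk of genes at the same level in every library, so each rise or fall is relative to the bulk of genes. With TMM scaling the median log2 fold change of all genes against sham lay between -0.04 and 0.13. Without it the median was 0.69 in Young Early IZ and 0.22 in Young Late IZ, 0.40 and 0.53 in the same zones of the Old, and between 0.16 and 0.37 in BZ. Per kilobase of exon, the TCA cycle genes were the most abundant members. In Old Late Sham the mean level per kilobase was 474 CPM for MDH1, the cytosolic malate dehydrogenase of the malate-aspartate shuttle, and 413 for MDH2, its mitochondrial counterpart. SDHA, the flavoprotein subunit of succinate dehydrogenase, followed at 342. The lowest were HIBCH of the valine branch at 8.51 and DBT, the core subunit of branched-chain ketoacid dehydrogenase, at 5.98. Of the 36 members, 30 had their lowest group mean in Old Late IZ, 3 in Old Early IZ and 3 in Young Early IZ. All 22 TCA cycle and pyruvate dehydrogenase genes were lowest in Old Late IZ. The highest group mean was in Old Late Sham for 19 members and in Young Early Sham for 11. The ratio of the highest to the lowest group mean ran from 2.50 for DLAT to 6.92 for BCKDHB.

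**Figure D1:**
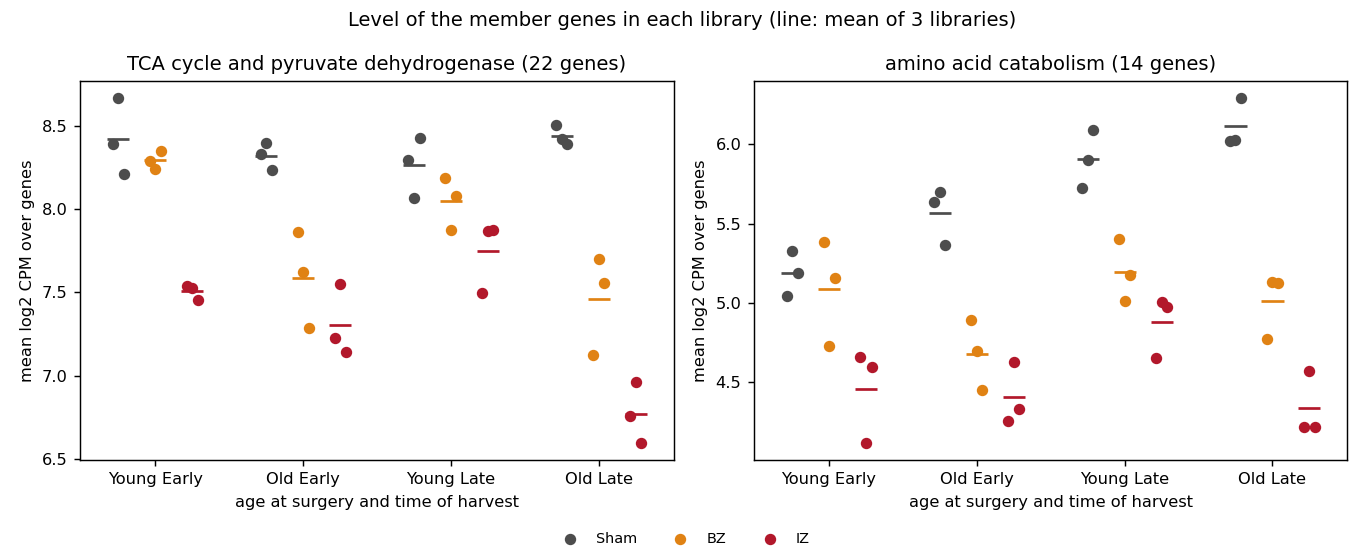
Mean log2 CPM over the 22 TCA cycle and pyruvate dehydrogenase genes (left) and over the 14 amino acid catabolism genes (right), with 1 point per library and a line at the mean of the 3 libraries, for Sham (grey), BZ (orange) and IZ (red) in each age and time group. The 3 Old Late IZ libraries are the lowest of all 36 in the left panel. Without TMM scaling they stood at 7.25, 7.59 and 7.32, above Young Early IZ replicate 2 at 7.19.

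One day after surgery the question was which of these genes already differed in the infarct zone of each age. In Young Early IZ, 26 of the 36 members fell against Young Early Sham and none rose (edgeR quasi-likelihood test, Benjamini-Hochberg adjusted over all genes), with 12.0% of all genes tested called lower. The median log2 fold change over the 36 was -0.92, beside 0.08 over all genes. The TCA cycle and pyruvate dehydrogenase genes made up most of them: 19 of 22 fell, against 7 of 14 in amino acid catabolism. Without TMM scaling 13 members were called lower and SUCLG2 higher, and the median over the 36 was -0.32. Of all 14537 genes, 473 were then called lower and 6116 higher. MDH1 was at 1096, 1606 and 863 CPM in the 3 sham libraries and at 358, 392 and 374 in the 3 IZ libraries. Its log2 fold change was -1.66 ± 0.27 (adjusted p = 9.93e-05), where ± gives the standard error of the fit with 3 libraries a group. The 3 IZ libraries lay close together and far below the lowest sham library.

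SDHA and CS, which encodes the citrate synthase that opens the cycle, fell in the same way. SDHA was at 1280.3, 1322 and 1135 CPM in sham and 448, 577 and 393 in IZ, a log2 fold change of -1.40 ± 0.24 (adjusted p = 1.82e-04). CS was at 854, 971 and 778 CPM in sham and 367, 408 and 359 in IZ, a log2 fold change of -1.20 ± 0.20 (adjusted p = 9.99e-05). Neither gene had an IZ library within the sham range. OGDH, the first subunit of 2-oxoglutarate dehydrogenase, went from 986, 919 and 828 to 433, 474 and 418 CPM, a log2 fold change of -1.04 ± 0.17 (adjusted p = 1.24e-04). BCKDHA, the E1 alpha subunit of branched-chain ketoacid dehydrogenase, fell by 1.27 ± 0.33 on the log2 scale (adjusted p = 0.00536). The smallest differences were those of DBT at 0.02 ± 0.27 (adjusted p = 0.959) and SUCLG2, the GTP-linked subunit of succinyl-CoA synthetase, at 0.06 ± 0.25 (adjusted p = 0.889). The genes that did not pass the test also included BCKDHB at -0.58 ± 0.38 (adjusted p = 0.254), ALDH6A1 at -0.68 ± 0.33 (adjusted p = 0.118) and PDHX at -0.28 ± 0.53 (adjusted p = 0.729).

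In Old Early IZ, 34 of 36 members fell and none rose, with 14.8% of all genes called lower and a median log2 fold change of -1.02 over the 36. Without TMM scaling 16 fell, beside 564 of 14537 genes called lower, with a median of -0.62. Here the amino acid catabolism genes led. ALDH6A1, the methylmalonate semialdehyde dehydrogenase at the end of the valine branch, was at 49.7, 53.6 and 40.4 CPM in sham and 9.36, 20.5 and 12.4 in IZ, a log2 fold change of -1.76 ± 0.33 (adjusted p = 1.92e-04). IVD, isovaleryl-CoA dehydrogenase of the leucine branch, was at 159, 188 and 154 CPM in sham and 45.4, 78.1 and 43.5 in IZ, a log2 fold change of -1.58 ± 0.24 (adjusted p = 1.30e-05). In both genes every IZ library lay below every sham library, and the IZ libraries differed among themselves, replicate 2 being the highest of the 3. PCCA, the alpha subunit of propionyl-CoA carboxylase, fell by 1.74 ± 0.27 (adjusted p = 2.26e-05), and PDHA1, the E1 alpha subunit of pyruvate dehydrogenase, by 1.54 ± 0.24 (adjusted p = 2.67e-05).

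The 2 members that did not pass the test in Old Early IZ were OGDH at -0.39 ± 0.17 (adjusted p = 0.0824) and IDH3G, the gamma subunit of NAD-linked isocitrate dehydrogenase, at -0.50 ± 0.26 (adjusted p = 0.138). OGDH was already lower in the older sham hearts, at 557, 544 and 512 CPM, and was at 439.5, 400.2 and 394 in IZ, so that the 2 groups stayed apart by a small margin. The difference between the 2 ages was tested for every member as Old minus Young in the response of IZ to infarction. At 1 day none of the 36 passed (edgeR; 5 had an unadjusted p under 0.05, the DESeq2 test called 2, limma-voom called 0), with 0.915% of all genes called in either direction. Leaving out Young Early IZ replicate 2 gave 2 and leaving out Old Early IZ replicate 2 gave 3. The lists of genes called at each age are therefore not shown to differ between the ages.

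Cardiomyocyte markers moved with these results. Their sum was 100273 to 118195 CPM in Young Early Sham and 26804 to 47232 in IZ, and 69930 to 77275 in Old Early Sham and 25847 to 43597 in IZ, with 5 and 4 of the 6 markers called lower. The 8 fibroblast markers summed to 1543 to 3611 and 3134 to 3673 CPM in the 2 IZ groups. Neutrophil markers, of which 4 of 6 were in the table, summed to at most 0.571 CPM in Young Early Sham and reached 19.8 to 28.3 in IZ. In the Old the sums were at most 0.958 and 33.9 to 292. MMP8 was at 0 in every Young Early library. In bulk tissue, fewer cardiomyocytes and less RNA per cardiomyocyte cannot be told apart. Relative to the mean log2 level of the 6 markers, the 36 members stood at -6.01 ± 0.10 in Young Early Sham and -5.27 ± 0.37 in Young Early IZ, and at -5.61 ± 0.10 and -5.27 ± 0.28 in the Old. For these levels ± gives the standard deviation over the 3 libraries of a group, not a standard error. The part of the cell mixture in the falls was not tested.

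**Figure D2:**
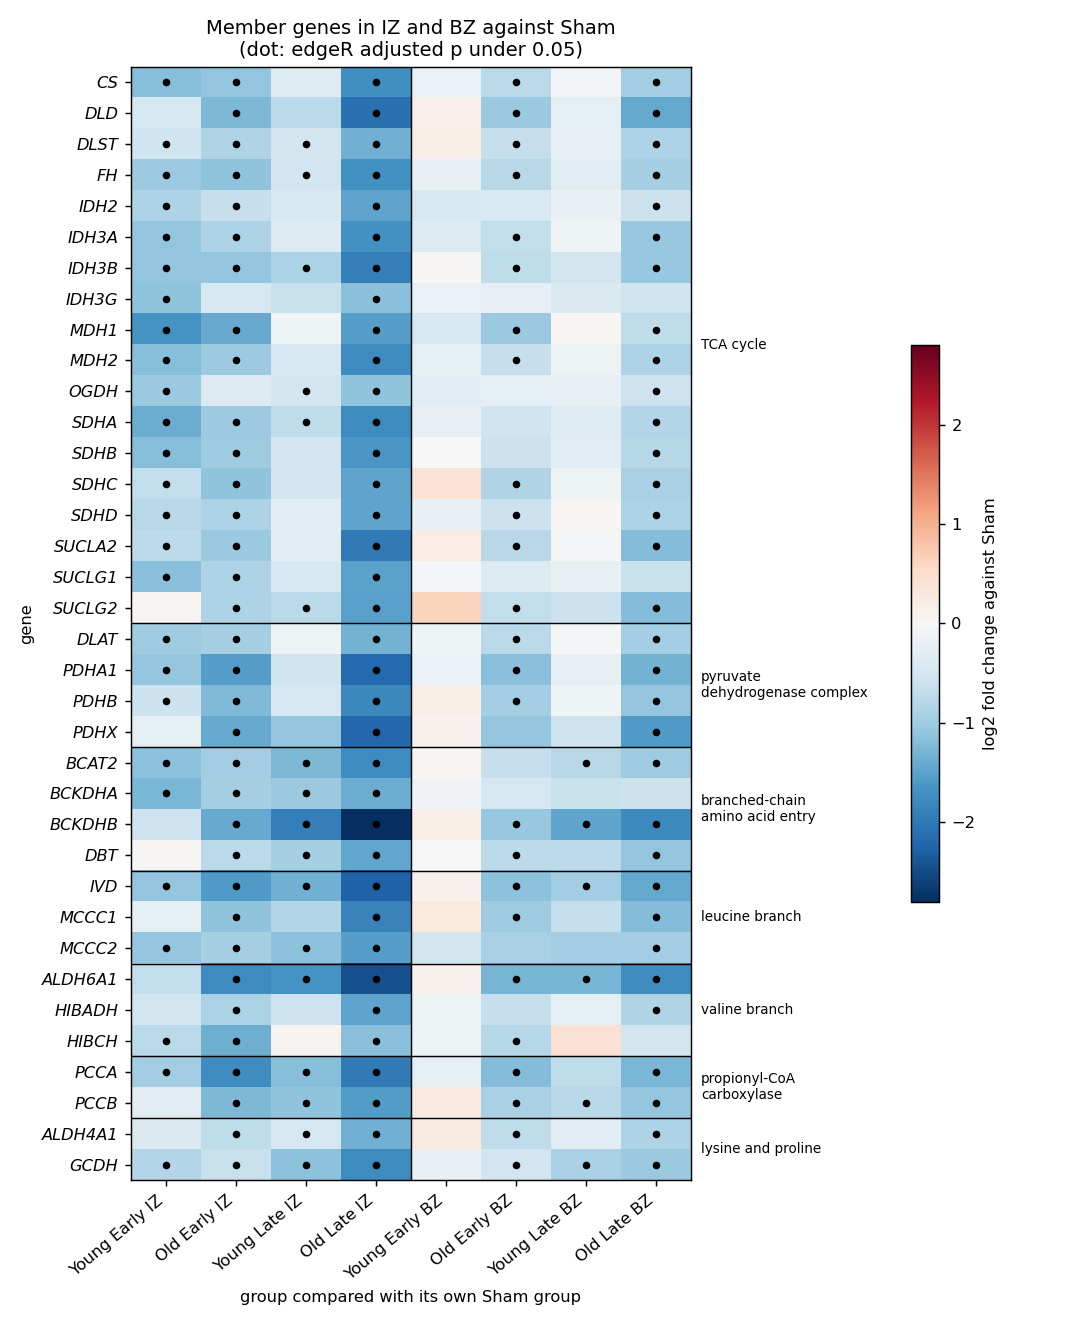
Log2 fold change against the matching Sham group (colour, blue lower and red higher) for each of the 36 genes, ordered by role, in IZ (left 4 columns) and BZ (right 4 columns); a dot marks an edgeR adjusted p under 0.05. Dots fill the Old Late IZ column, 36 of 36, and are missing from the Young Early BZ column.

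One week after surgery the infarct zones of the 2 ages were compared with their sham groups to ask whether the early falls lasted. In Young Late IZ, 17 of 36 members were called lower and none higher, beside 13.0% of all genes called lower. The TCA cycle and pyruvate dehydrogenase genes supplied 6 of their 22, with a median log2 fold change of -0.51, and none of the 4 pyruvate dehydrogenase genes was called. Amino acid catabolism supplied 11 of its 14, with a median of -1.14. The count of 17 was 8 without Young Late IZ replicate 1, which is also the batch 1 library of its group, and 11 without Young Late Sham replicate 3. Within the 2 Sham and 2 IZ libraries of batch 2 alone it was 7, and without TMM scaling 10, beside 822 of 14537 genes called lower.

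BCKDHB, the E1 beta subunit of branched-chain ketoacid dehydrogenase, had the largest fall in Young Late IZ. Its level was 30.0, 28.4 and 47.2 CPM in sham and 7.54, 9.74 and 10.9 in IZ, a log2 fold change of -1.91 ± 0.39 (adjusted p = 5.43e-04). ALDH6A1 was at 44.3, 78.8 and 83.7 CPM in sham and 17.9, 21.2 and 25.9 in IZ, a log2 fold change of -1.67 ± 0.33 (adjusted p = 4.08e-04). IVD was at 249, 188 and 231 CPM in sham and 75.5, 100 and 85.9 in IZ, a log2 fold change of -1.36 ± 0.24 (adjusted p = 9.19e-05). All IZ libraries of these 3 genes were close together and below the lowest sham library, and each call held whichever of the 6 libraries was left out. BCAT2, the mitochondrial branched-chain aminotransferase, fell by 1.27 ± 0.27 (adjusted p = 7.63e-04). GCDH of the lysine pathway and both propionyl-CoA carboxylase genes, PCCA and PCCB, also fell, by 1.15, 1.19 and 1.13.

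MDH1 was near its sham level in Young Late IZ. It was at 969.7, 658 and 939.7 CPM in sham and 618, 840.3 and 896 in IZ, so the groups overlapped, and the log2 fold change was -0.13 ± 0.27 (adjusted p = 0.757). DLAT, the E2 subunit of pyruvate dehydrogenase, stood at -0.13 ± 0.19 (adjusted p = 0.626) and CS at -0.37 ± 0.19 (adjusted p = 0.158). HIBCH was the only member with a value above 0, at 0.07 ± 0.27 (adjusted p = 0.865). The change between the times was tested directly: 3 members had a higher response at 1 week than at 1 day in the Young, beside 6.12% of all genes called higher. These were MDH1 at 1.54 ± 0.38 (adjusted p = 0.0123), DLAT at 0.86 ± 0.26 (adjusted p = 0.0328) and CS at 0.83 ± 0.28 (adjusted p = 0.0451). The call of MDH1 held whichever of the 12 libraries was left out. The count of 3 ranged from 1 to 5: it was 1 on leaving out any of the 3 Young Late IZ libraries, replicates 1 or 3 of Young Early IZ, or replicate 2 of either Young sham group. It was 5 on leaving out replicate 2 of Young Early IZ or replicate 1 of Young Late Sham. With Young Late restricted to batch 2 it was 0. Without TMM scaling none of the 3 was called, and SUCLG2 and PCCB were called lower, at -1.31 and -1.29, so the direction over the members depends on the scaling.

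In Old Late IZ all 36 members fell, beside 24.0% of all genes called lower, with log2 fold changes from -2.79 to -1.13 and a median of -1.67. BCKDHB was at 35.1, 32.0 and 55.8 CPM in sham and 4.36, 8.53 and 4.87 in IZ, a log2 fold change of -2.79 ± 0.40 (adjusted p = 1.69e-06). ALDH6A1 was at 79.0, 88.9 and 105 CPM in sham and 11.6, 22.1 and 16.0 in IZ, a log2 fold change of -2.46 ± 0.34 (adjusted p = 1.00e-06). IVD went from 256, 267 and 235 to 46.3, 65.3 and 47.1 CPM, a log2 fold change of -2.26 ± 0.24 (adjusted p = 2.55e-08). In all 3 genes the 2 groups were far apart, with replicate 2 the highest of the IZ libraries.

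The 2 smallest falls in Old Late IZ were those of OGDH, at -1.13 ± 0.17 (adjusted p = 5.68e-06), and HIBCH, at -1.16 ± 0.27 (adjusted p = 6.50e-04), and both passed the test. PDHX, a structural subunit of pyruvate dehydrogenase, fell by 2.20 ± 0.55 (adjusted p = 0.00144), and PDHA1 by 2.17 ± 0.25 (adjusted p = 6.99e-08). The count stayed at 36 with any 1 of the 6 libraries left out, with the mitochondrially encoded genes left out, and with RNA integrity as a covariate. Mitochondrially encoded genes took 9.75 to 11.0% of the counts in Old Late IZ and 22.8 to 24.0% in Old Late Sham. Without TMM scaling 35 were called, all but HIBCH, beside 1060 of 14537 genes called lower, with a median of -1.10. The mean log2 level of the 36 was then below sham by a difference of -1.14 in place of -1.71 in Old Late IZ, -0.54 in place of -0.72 in Young Late IZ, -0.66 in place of -1.07 in Old Early IZ and -0.27 in place of -0.85 in Young Early IZ.

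**Figure D3:**
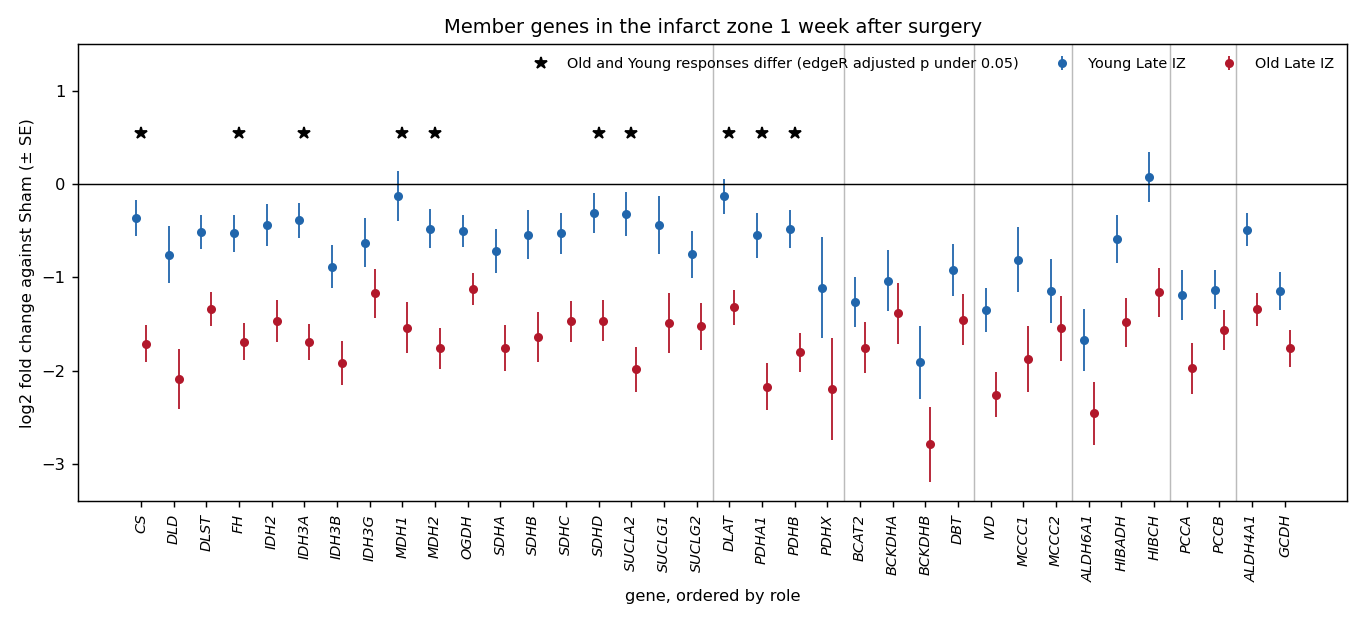
Log2 fold change against Sham with its standard error for each of the 36 genes in Young Late IZ (blue) and Old Late IZ (red); stars mark the 10 genes whose Old and Young responses differ at an edgeR adjusted p under 0.05. The red points lie below the blue ones for all 36 genes (35 without TMM scaling), and the stars fall on TCA cycle and pyruvate dehydrogenase genes.

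The response of IZ at 1 week was lower in Old than in Young for 10 members, beside 2.35% of all genes called lower. All 36 had a difference below 0, and 35 without TMM scaling, with a median of -1.03 and of -0.64 without it. The 10 were TCA cycle and pyruvate dehydrogenase genes: SUCLA2, PDHA1, MDH1, CS, PDHB, IDH3A, MDH2, DLAT, FH and SDHD. SUCLA2, the ADP-linked subunit of succinyl-CoA synthetase, was at 94.3, 98.9 and 165 CPM in Young Late Sham and 73.2, 98.3 and 116 in Young Late IZ. In the Old it was at 207, 215 and 201 in sham and 43.1, 66.9 and 47.4 in IZ, which gave a difference of responses of -1.66 ± 0.33 (adjusted p = 0.00934). The groups overlapped in the Young and were well apart in the Old, where sham was also higher. PDHA1 was at 700.2, 577 and 862 CPM in Young Late Sham and 387, 557 and 516 in IZ.

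In the Old, PDHA1 was at 1208, 1027 and 1132 CPM in sham and 225, 288 and 234 in IZ, and the difference of responses was -1.62 ± 0.34 (adjusted p = 0.014). Every IZ library of either age was below every sham library of that age, with a wider gap in the Old. CS differed by -1.35 ± 0.28 (adjusted p = 0.0117), MDH1 by -1.41 ± 0.38 (adjusted p = 0.0357), PDHB, the E1 beta subunit of pyruvate dehydrogenase, by -1.32 ± 0.29 (adjusted p = 0.0159), and IDH3A, the catalytic alpha subunit of isocitrate dehydrogenase, by -1.30 ± 0.27 (adjusted p = 0.0116). CS went from 716, 662 and 672 to 205, 246 and 174 CPM in the Old and from 643, 433 and 729.9 to 377, 497 and 527 in the Young, where the ranges overlapped. That overlap rested on Young Late Sham replicate 2, at 433 CPM, the library with the lowest total.

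The number called in this comparison depended on single libraries. It was 0 when replicate 3 of either IZ group was left out, 3 for replicate 2 of Young Late Sham, 5 for replicate 1 of Old Late IZ and 6 for replicate 2 of Young Late IZ. Among the other alternatives it was 1, PDHA1, without TMM scaling, and the rest ran from 4, with Young Late restricted to batch 2, to 15 with the DESeq2 test. Without TMM scaling 29 of 14537 genes were called lower. The median difference over the 36 stayed between -1.08 and -0.79 with 1 library left out. None of the 14 amino acid catabolism genes was called, and their median difference was -0.79. All Old Late libraries were prepared in batch 3 and none of the Young Late ones was, so a difference between those batches in how sham and IZ compare cannot be told apart from age.

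Cell type markers also differed between these groups. The cardiomyocyte sum was 58323 to 78999 CPM in Young Late IZ and 21570 to 34201 in Old Late IZ, with 2 and 5 of the 6 markers called lower against sham. The 8 fibroblast markers summed to 4590 to 7825 CPM in Young Late IZ and 16836 to 20794 in Old Late IZ, and to 708 to 1303 and 1260 to 1575 in the 2 sham groups. The 8 macrophage markers summed to 519 to 712 and 632 to 821 CPM in the 2 IZ groups. Relative to the cardiomyocyte markers, the TCA cycle and pyruvate dehydrogenase genes stood at -4.78 ± 0.15 in Young Late Sham and -4.75 ± 0.03 in Young Late IZ, and at -4.56 ± 0.08 and -4.55 ± 0.18 in the Old. The amino acid catabolism genes stood at -7.13 ± 0.35 in Young Late Sham, -7.61 ± 0.09 in BZ and -7.62 ± 0.05 in IZ, and at -6.89 ± 0.12, -7.20 ± 0.18 and -6.98 ± 0.27 in the Old. For the levels of both sets ± again gives the standard deviation over the 3 libraries of a group. The part of the cell mixture in the difference between the ages was not tested.

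The level of the 2 sets of genes relative to each other is given as a description, with no test. The mean log2 level of the 22 TCA cycle and pyruvate dehydrogenase genes was above that of the 14 amino acid catabolism genes by 2.36 in Young Late Sham (2.16 to 2.57 over the 3 libraries), by 2.85 in BZ (2.79 to 2.90) and by 2.87 in IZ (2.84 to 2.90). Neither zone overlapped with sham, in groups of 3 libraries. In the Old Late hearts the same difference was 2.33 in sham (2.10 to 2.48), 2.45 in BZ (2.35 to 2.57) and 2.43 in IZ (2.38 to 2.54), so that the groups overlapped. It was 3.24 in Young Early Sham (3.03 to 3.35) and 3.05 in IZ (2.86 to 3.40), where sham was the higher and the groups overlapped, and 2.76 and 2.90 in the same groups of the Old, which overlapped too. The only member called lower in the Old IZ response at 1 week than at 1 day was GCDH, the glutaryl-CoA dehydrogenase of lysine breakdown, at -1.13 ± 0.28 (adjusted p = 0.0171), beside 1.59% of all genes called lower. That call was absent without TMM scaling, without replicates 1 or 3 of Old Late IZ or replicate 3 of either Old sham group, and 2 members were called without replicate 2 of Old Late IZ.

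Border zone and sham were compared to ask how far the falls reached outside the infarct. In Young Early BZ none of the 36 was called (edgeR; 1 had an unadjusted p under 0.05, and the DESeq2 test and limma-voom called 0), beside 1.11% of all genes called in either direction. The values nearest 0 were those of DBT at 0.00 ± 0.28 (adjusted p = 0.997) and SDHB, the iron-sulfur subunit of succinate dehydrogenase, at 0.01 ± 0.26 (adjusted p = 0.986). MDH1 was at 824, 454 and 1266 CPM in these 3 libraries, with the library that stands apart, replicate 2, the lowest, and its log2 fold change was -0.49 ± 0.27 (adjusted p = 0.34). The same library had PDHX at 0.783 CPM, where the other 2 BZ libraries had 26.2 and 31.7. Without TMM scaling the mean level of the 36 in Young Early BZ was above sham by a log2 difference of 0.05, and with it below by a difference of -0.12, so no direction is given for it.

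In Old Early BZ, 25 members fell and none rose, beside 8.46% of all genes called lower, with a median of -0.75. ALDH6A1, at 19.4, 23.5 and 15.0 CPM, had the largest fall at -1.31 ± 0.33 (adjusted p = 0.00486), followed by PCCA at -1.22 ± 0.27 (adjusted p = 0.00177), PDHA1 at -1.16 ± 0.24 (adjusted p = 0.00114) and IVD at -1.14 ± 0.23 (adjusted p = 0.00104). The smallest differences were those of OGDH at -0.25 ± 0.17 (adjusted p = 0.304) and IDH3G at -0.22 ± 0.26 (adjusted p = 0.568). The count of 25 was 13 without BZ replicate 3, 14 without Sham replicate 2 and 16 without Sham replicate 1 or BZ replicate 2. Without TMM scaling it was 2, IVD and PDHA1, and the mean log2 level of the 36 was below sham by a difference of -0.43 in place of -0.79. Of all 14537 genes, 196 were then called lower. The cardiomyocyte sum in Old Early BZ was 28957 to 67154 CPM and the neutrophil sum 27.0 to 60.9, and their part was not tested.

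In Young Late BZ, 6 members fell, all of amino acid catabolism, beside 6.0% of all genes called lower. BCKDHB was at 15.4, 10.6 and 12.1 CPM, a log2 fold change of -1.47 ± 0.38 (adjusted p = 0.0111), ALDH6A1 at 33.9, 21.8 and 28.4, a log2 fold change of -1.29 ± 0.33 (adjusted p = 0.00928), and IVD at 143, 94.6 and 102, a log2 fold change of -0.98 ± 0.23 (adjusted p = 0.00629). All 9 values were below the lowest sham library of the gene. GCDH fell by 0.91 ± 0.20 (adjusted p = 0.0033), and PCCB and BCAT2 were the other 2. None of the 22 TCA cycle and pyruvate dehydrogenase genes was called, and the values nearest 0 were those of DLAT at -0.02 ± 0.19 (adjusted p = 0.95) and SUCLA2 at -0.03 ± 0.23 (adjusted p = 0.947). The count of 6 was 1 without BZ replicate 2 and 3 without Sham replicate 2, and 0 within batch 2. The cardiomyocyte sum was 78924 to 92798 CPM in BZ, within the range of its sham group, with 0 of the 6 markers called. Markers of some other cells were higher: the fibroblast sum was 1827 to 4963 CPM in BZ and 708 to 1303 in sham, with 6 of 8 called, the macrophage sum 155 to 435 and 58.0 to 63.7, with 7 of 8 called, and the smooth muscle sum 795 to 1486 and 202 to 298, with 3 of 4 called. Of all 14537 genes, 1199 were called higher and 872 lower. The endothelial markers TEK and KDR were called lower, at -1.18 ± 0.35 (adjusted p = 0.0226) and -0.86 ± 0.29 (adjusted p = 0.0479). The part of these cells was not tested.

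In Old Late BZ, 32 members fell, beside 19.7% of all genes called lower, with a median of -0.97. BCKDHB and ALDH6A1 again fell most, by 1.77 ± 0.38 (adjusted p = 6.53e-04) and 1.74 ± 0.33 (adjusted p = 1.66e-04). PDHX fell by 1.58 ± 0.53 (adjusted p = 0.0197) and DLD by 1.44 ± 0.31 (adjusted p = 7.07e-04). The members that did not pass were HIBCH at -0.51 ± 0.26 (adjusted p = 0.122), IDH3G at -0.56 ± 0.26 (adjusted p = 0.087), BCKDHA at -0.60 ± 0.32 (adjusted p = 0.138) and SUCLG1 at -0.62 ± 0.31 (adjusted p = 0.116). The cardiomyocyte sum in Old Late BZ was 40906 to 63504 CPM and the fibroblast sum 7370 to 15975, and their part was not tested. Only 2 of the 6 cardiomyocyte markers, MYH6 and RYR2, were called lower there. Without TMM scaling 21 members fell, beside 931 of 14537 genes called lower.

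The BZ response was also compared between the ages. At 1 day none of the 36 differed between Old and Young (edgeR; 17 had an unadjusted p under 0.05, the DESeq2 test called 7 and limma-voom 0), beside 0.22% of all genes called in either direction. The largest differences were those of ALDH6A1 at -1.42 ± 0.46 (adjusted p = 0.111) and SUCLG2 at -1.33 ± 0.35 (adjusted p = 0.0689). Without Young Early BZ replicate 2, the library that stands apart, 17 members were called, and 1 was called on leaving out replicate 2 of Young Early Sham. At 1 week none was called (edgeR; 14 had an unadjusted p under 0.05, the DESeq2 test called 6 and limma-voom 0), beside 1.09% of all genes. SUCLA2 had the largest difference at 1 week, at -1.19 ± 0.33 (adjusted p = 0.0619). There the count was 5 on leaving out replicate 3 of Young Late Sham, 3 for replicate 2 of Young Late BZ and 1 for replicate 2 of Old Late BZ.

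**Figure D4:**
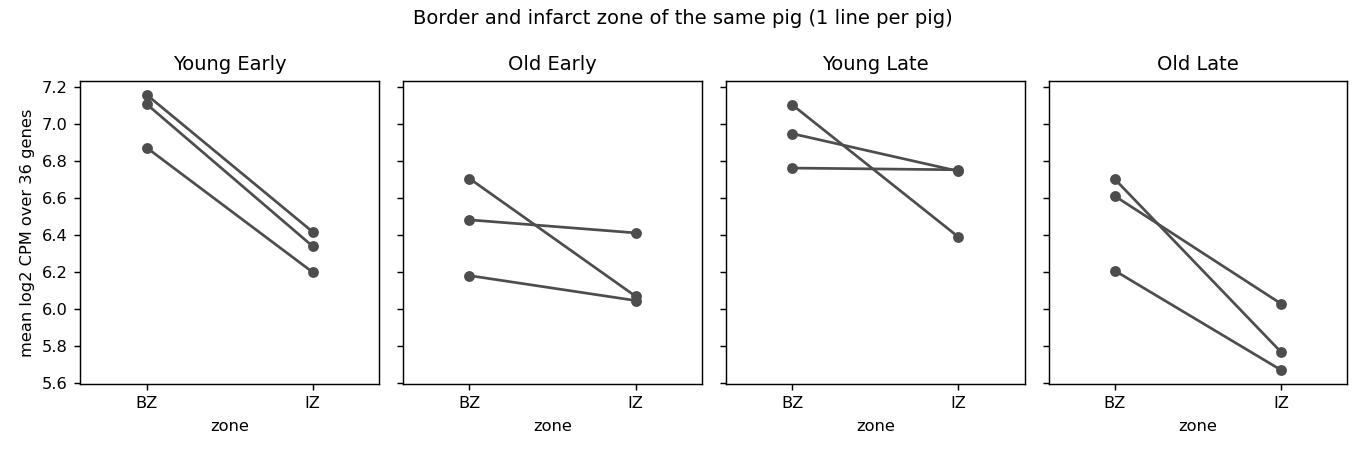
Mean log2 CPM over the 36 genes in BZ and IZ, with 1 line per infarcted pig, in the 4 age and time groups. All 12 pigs fall from BZ to IZ. The differences of the Young Early and Old Late pigs range from -0.93 to -0.54, and those of the Old Early and Young Late pigs from -0.71 to -0.01. Without TMM scaling they ranged from -0.36 to -0.23 in Young Early and from -0.66 to -0.21 in Old Late. They were then -0.44 to -0.04 in Old Early and -0.36 to -0.06 in Young Late, so the groups overlapped.

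IZ and BZ of the same pig were compared with the animal as a block. In Young Early pigs 23 members were lower in IZ, beside 6.68% of all genes called lower. IVD was at 159.7, 194 and 117 CPM in BZ and 76.0, 64.7 and 61.3 in IZ, a log2 difference of -1.20 ± 0.22 (adjusted p = 0.00903). SDHA differed by -1.15 ± 0.21 (adjusted p = 0.00861) and SDHB by -1.12 ± 0.21 (adjusted p = 0.00958). The mean log2 level over the 36 was lower in IZ in each of the 3 pigs, with differences of -0.74, -0.67 and -0.77. The count of 23 was 10 without IZ or BZ replicate 2 and 11 without IZ or BZ replicate 1. It was 14 without TMM scaling, beside 392 of 14386 genes called lower.

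In Old Late pigs 8 members were lower in IZ than in BZ, beside 1.61% of all genes, and the mean over the 36 was lower in IZ in each pig, with differences of -0.54, -0.93 and -0.58. The largest called differences were those of SDHA at -0.94 ± 0.21 (adjusted p = 0.0429), MDH2 at -0.92 ± 0.20 (adjusted p = 0.0421) and SUCLG1, the shared subunit of succinyl-CoA synthetase, at -0.89 ± 0.20 (adjusted p = 0.045). All 8 adjusted p-values lay between 0.0383 and 0.0499, no member was called when any 1 of the 6 libraries was left out, and 27 were called by limma-voom and 23 by the DESeq2 test. Without the animal block 1 was called, and without TMM scaling 0. The labels conflict on the animal of Old Late BZ replicate 3, and with the animal given by the other label 0 were called. In Old Early pigs and in Young Late pigs 0 members were called, with 0.0% of all genes called in either (edgeR; 2 members had an unadjusted p under 0.05 in each, and the DESeq2 test and limma-voom called 0). In those 2 groups single pigs differed: the differences in mean level were -0.64, -0.07 and -0.13 in the Old Early pigs and -0.71, -0.01 and -0.20 in the Young Late pigs. In the Young Late pigs of replicates 1 and 3, IZ and BZ were prepared in different batches. Zone and batch cannot be told apart within those pairs, and only replicate 2, at -0.01, had both zones in the same batch. Over all 36 the median difference in the Young Late pigs was -0.33, and -0.10 without either library of replicate 1.

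The sham hearts show the members without infarction at 4 ages. From 3 to 9 days of age (Young Late against Young Early) 7 members rose, beside 4.38% of all genes called higher, and none fell. All 7 act in amino acid catabolism: ALDH6A1, MCCC1, BCKDHB, MCCC2, PCCB, DBT and ALDH4A1. ALDH6A1 was at 19.9, 24.3 and 27.0 CPM at 3 days and 44.3, 78.8 and 83.7 at 9 days, a log2 fold change of 1.54 ± 0.33 (adjusted p = 0.00701). MCCC1, the alpha subunit of methylcrotonyl-CoA carboxylase in the leucine branch, was at 9.93, 14.4 and 9.42 CPM and then at 24.9, 25.5 and 32.0, a log2 fold change of 1.28 ± 0.35 (adjusted p = 0.0264). BCKDHB was at 12.3, 19.0 and 14.0 CPM and then at 30.0, 28.4 and 47.2, a log2 fold change of 1.22 ± 0.38 (adjusted p = 0.0423). All older libraries were above all younger ones in these 3 genes.

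The 14 amino acid catabolism genes had a median log2 fold change of 0.74 from 3 to 9 days, and the 22 TCA cycle and pyruvate dehydrogenase genes one of -0.20, with 0 of them called. The call of ALDH6A1 held whichever of the 6 libraries was left out. The count of 7 was 2 when replicate 3 of the younger or replicate 2 of the older group was left out, and 3 when replicate 1 of the younger or replicate 3 of the older group was. It was 4 with the preparation batch as a term and 4 without TMM scaling, beside 371 of 14537 genes then called higher. It was 0 with only the batch 2 libraries of the older group, which leaves them against a younger group prepared wholly in batch 1, so that batch and age cannot be told apart there. Macrophage markers were lower at 9 days, summing to 58.0 to 63.7 CPM against 116 to 168 at 3 days, with 4 of 8 called, while none of the 6 cardiomyocyte markers was called. Their part was not tested.

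Between 3 and 15 days (Old Early against Young Early) 4 members rose and 4 fell, beside 17.5% of all genes called higher and 13.6% called lower. Both counts were below the share of all genes. The 4 that fell belong to the TCA cycle: OGDH, IDH2, SDHA and MDH2. OGDH differed by -0.76 ± 0.17 (adjusted p = 0.00393), IDH2, the NADP-linked mitochondrial isocitrate dehydrogenase, by -0.74 ± 0.22 (adjusted p = 0.0157), and SDHA, at 1280.3, 1322 and 1135 CPM and then at 810.3, 817 and 754, by -0.65 ± 0.24 (adjusted p = 0.0389). Of the 4 that rose, SUCLG2 differed by 1.08 ± 0.25 (adjusted p = 0.00443), ALDH6A1 by 1.01 ± 0.33 (adjusted p = 0.0215) and MCCC1 by 0.98 ± 0.35 (adjusted p = 0.0356), and PCCB was the last. The calls of OGDH and SUCLG2 held whichever of the 6 libraries was left out, while that of SDHA was lost with any of them left out. The count of 8 was 3 when replicate 1 of the younger group was left out, 4 for replicate 2 of the older group, and 5 for replicate 3 of the younger or replicates 1 or 3 of the older group. Without TMM scaling 9 rose and only OGDH fell, so the falls of IDH2, SDHA and MDH2 depend on the scaling. The 9 are near the share of all genes, of which 3142 of 14537 were then called higher. The 2 groups were prepared in different batches.

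From 15 to 21 days (Old Late against Old Early) GCDH rose by 1.20 ± 0.20 (adjusted p = 0.0147) and ALDH4A1, which completes proline breakdown to glutamate, by 0.94 ± 0.18 (adjusted p = 0.0374). These were 2 of the 3 genes called higher over all genes, or 0.0206%. GCDH was at 35.7, 26.7 and 22.5 CPM at 15 days and 60.4, 59.7 and 75.0 at 21 days, with no overlap. Neither was called when replicates 2 or 3 of the 21-day group or replicate 3 of the 15-day group were left out, and 1 was called when replicate 1 of the 15-day group was. Without TMM scaling 0 were called. Batches differ here too. Between 9 and 21 days (Old Late against Young Late) SUCLA2 was the only member called, at 0.80 ± 0.23 (adjusted p = 0.0289). That is below the share of all genes, of which 6.98% were called higher. These 2 groups share no preparation batch. The call of SUCLA2 was absent when replicates 1 or 2 of either group were left out, and 2 members were called when replicate 3 of the 9-day group was. Without TMM scaling 9 rose, beside 2121 of 14537 genes called higher.

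**Figure D5:**
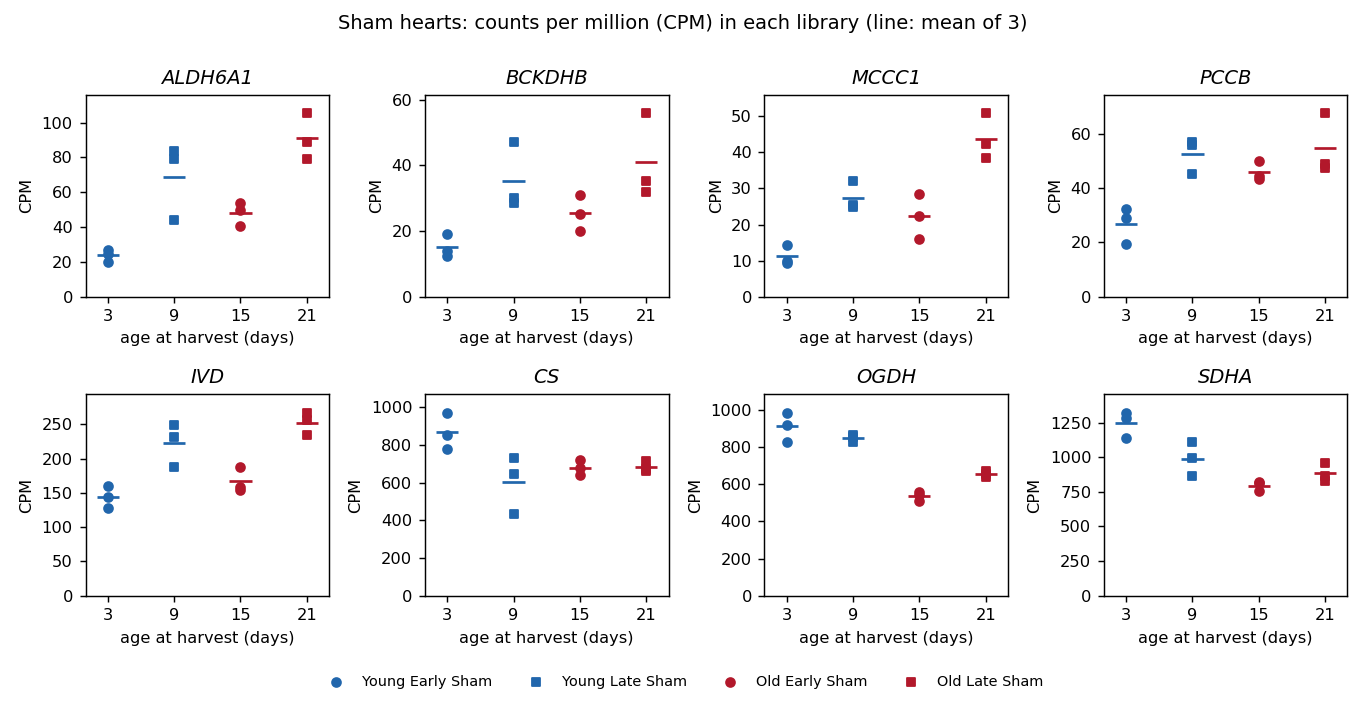
CPM in each sham library against age at harvest in days for 5 amino acid catabolism genes (ALDH6A1, BCKDHB, MCCC1, PCCB, IVD) and 3 TCA cycle genes (CS, OGDH, SDHA), with a line at the mean of the 3 libraries; blue marks Young, red Old, circles Early and squares Late. ALDH6A1 rises from 19.9 to 27.0 CPM at 3 days to 79.0 to 105.3 CPM at 21 days, while OGDH and SDHA have their highest mean at 3 days with TMM scaling. That ranking of the ages depends on the scaling, and without it SDHA was not called between 3 and 15 days.

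Partners within an enzyme did not have equal values. In Old Late IZ, BCKDHB stood at -2.79 ± 0.40 and its E1 partner BCKDHA at -1.39 ± 0.33. In Young Late IZ the 2 values were -1.91 ± 0.39 and -1.04 ± 0.33, and in Young Early IZ -0.58 ± 0.38 and -1.27 ± 0.33. For succinyl-CoA synthetase in Young Early IZ, the shared subunit SUCLG1 stood at -1.18 ± 0.32, SUCLA2 at -0.72 ± 0.23 and SUCLG2 at 0.06 ± 0.25. In Old Late IZ these were -1.49 ± 0.32, -1.98 ± 0.24 and -1.52 ± 0.25. The 4 succinate dehydrogenase subunits ran from -1.76 ± 0.24 for SDHA to -1.47 ± 0.22 for SDHD in Old Late IZ. Differences between genes of an enzyme were not tested.

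Other genes of these pathways were read from lists of names. Of 6 other TCA cycle and assembly genes tested, 2 fell and 2 rose in Old Late IZ. Over all genes 24.0% were called lower there and 3646 of 14537 higher, so these small counts are near the share of all genes. LIAS, the lipoic acid synthase whose product the E2 subunits carry, fell by 1.41 ± 0.27 (adjusted p = 7.04e-05), and ACO1, known also as an iron-responsive RNA-binding protein, by 1.28 ± 0.22 (adjusted p = 1.87e-05). The genes that rose were ACLY and IDH1, named here after their values were seen, with log2 fold changes of 0.78 ± 0.19 (adjusted p = 0.00148) and 0.78 ± 0.29 (adjusted p = 0.0286). Of 8 genes for pyruvate transport and pyruvate dehydrogenase regulation, 5 fell in Old Late IZ and none rose, beside the same 24.0% of all genes called lower. Among those that fell were the phosphatase PDP1 at -2.09 ± 0.21 (adjusted p = 1.23e-08) and the kinase PDK2 at -1.78 ± 0.28 (adjusted p = 7.89e-06).

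Of 12 further branched-chain and propionate genes, 9 fell and 1 rose in Old Late IZ, beside 24.0% of all genes called lower. PPM1K, the phosphatase that activates branched-chain ketoacid dehydrogenase, fell by 2.26 ± 0.25 (adjusted p = 4.67e-08). The gene that rose was BCAT1, the cytosolic aminotransferase, at 3.70 ± 0.52 (adjusted p = 1.43e-06). BCAT1 rose in the IZ of every group, with values of 2.05 ± 0.52 in Young Early, 2.60 ± 0.52 in Old Early and 3.60 ± 0.61 in Young Late, where its mitochondrial counterpart BCAT2 fell in each. Of 15 other amino acid catabolism genes, 3 rose and 3 fell in Old Late IZ. Of all 14537 genes tested, 3646 were called higher and 3491 lower there, so both counts were below the share of all genes. PYCR1, a proline synthesis enzyme, rose there by 4.69 ± 0.51 (adjusted p = 3.39e-08), where ALDH4A1 of proline breakdown fell by 1.34 ± 0.18 (adjusted p = 5.62e-07).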

How the data were processed

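Polyadenylated RNA was prepared with a stranded kit and sequenced as paired 76-base reads, per the labels. Raw counts per gene were deposited by the authors in 1 table of 25880 genes and 36 libraries; the submitters' processing notes name featureCounts of Subread 1.5.1, the aligner STAR, Trimmomatic 0.36 and bcl2fastq 2.19.0.316. The genome build, annotation and strand setting are not given in the sources used here, so genes that overlap others or share reads with near-identical copies are uncertain. Symbols came from the files and reference name tables.

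Counts were tested with the quasi-likelihood test of edgeR 4.0.16 in R 4.3.3, with TMM scaling. Genes were filtered by filterByExpr (minimum count 10, minimum total 15). The 12 groups shared 1 fit with 24 residual degrees of freedom over 14537 genes. IZ and BZ were compared in a fit over 24 libraries with the pig as a block, 8 residual degrees of freedom and 14386 genes; the pig number in the titles pairs them. The Benjamini-Hochberg adjustment ran over every gene of a fit, and called means an adjusted p under 0.05. Levels per library are TMM-scaled CPM, and mean log2 levels use a prior count of 2. The code was tested on simulated data. Alternatives included DESeq2 1.42.0, limma-voom 3.58.1, other scaling (including none) and filters, batch and RNA integrity terms, and leaving out each library.

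The genes and lists were chosen with earlier results of these data known. Full statistics were given, per comparison with sham, for the 4 largest called falls and the 2 smallest differences, and for up to 6 called differences between responses, 3 called falls or rises between sham groups or zones, and 2 called genes per list of other genes; further members are named as examples. A gene of the lists is not reported here. No 2 libraries held identical counts.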

Additional observations from a re-analysis of the deposited data

Results flagged for a closer look

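A difference between 2 responses to infarction passed the edgeR test for 14 member values, each tested as a difference of log2 fold changes. In 10 of them the response of IZ at 1 week was lower in Old than in Young, or 10 of 36 members beside 2.35% of all genes called lower. SUCLA2 stood at -0.32 ± 0.23 in the Young and -1.98 ± 0.24 in the Old, a difference of -1.66. PDHA1 stood at -0.55 ± 0.24 in the Young and -2.17 ± 0.25 in the Old, a difference of -1.62. MDH1 stood at -0.13 ± 0.27 in the Young and -1.54 ± 0.27 in the Old, a difference of -1.41. CS stood at -0.37 ± 0.19 in the Young and -1.71 ± 0.20 in the Old, a difference of -1.35. PDHB stood at -0.48 ± 0.20 in the Young and -1.80 ± 0.21 in the Old, a difference of -1.32. IDH3A stood at -0.39 ± 0.19 in the Young and -1.69 ± 0.19 in the Old, a difference of -1.30. MDH2 stood at -0.48 ± 0.21 in the Young and -1.76 ± 0.22 in the Old, a difference of -1.28. DLAT stood at -0.13 ± 0.19 in the Young and -1.32 ± 0.19 in the Old, a difference of -1.19. FH stood at -0.53 ± 0.19 in the Young and -1.69 ± 0.20 in the Old, a difference of -1.16. SDHD stood at -0.31 ± 0.22 in the Young and -1.47 ± 0.22 in the Old, a difference of -1.16. With 1 library left out at a time, SUCLA2, CS and IDH3A were called in 10 of 12 repeats, the call being absent when replicate 3 of either IZ group was left out, and SDHD in 3 of 12. Without TMM scaling PDHA1 alone was called.

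In 3 of them the response of the Young IZ was higher at 1 week than at 1 day: MDH1 by 1.54, DLAT by 0.86 and CS by 0.83. These are 3 of 36 members beside 6.12% of all genes called higher, a share near that of all genes, and none was called without TMM scaling. With 1 library left out, MDH1 was called in 12 of 12 repeats, DLAT in 4 and CS in 3. In the Old, GCDH had a lower IZ response at 1 week than at 1 day, by a difference of -1.13, and was called in 8 of 12 repeats and not without TMM scaling, with 1 of 36 members beside 1.59% of all genes called lower. The comparisons share the Young Late or Old Late libraries, so these values are not independent. No group has more than 3 libraries, so single libraries far from their group were not looked for by a rule.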

How the results depend on the processing

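Without TMM scaling, chosen after seeing the data, the median of all genes against sham rose to between 0.16 and 0.69. The members called were then 14 in Young Early IZ, 16 in Old Early IZ, 10 in Young Late IZ, 2 in Old Early BZ, 21 in Old Late BZ, 1 for the Late IZ response between ages, 0 for the Old IZ response over time, 9 for the Late, 4 for the Young and 0 for the Old shams, 14 for Young Early and 0 for Old Late IZ minus BZ. For the Young IZ response over time 2 were called lower where 3 had been higher. The medians were -0.3157 in Young Early IZ, -0.617 in Old Early IZ, -1.1017 in Old Late IZ, 0.0982 in Young Early BZ, -0.3775 in Old Early BZ, -0.7008 in Old Late BZ, -0.3932 and -0.6362 for the Early and Late IZ responses between ages, -0.4884 for the Early BZ response, -0.2136 and -0.4883 for the Young and Old IZ responses over time, 0.2516, 0.5609 and 0.4337 for the Early, Late and Old shams, and -0.3503 and -0.3895 for IZ minus BZ in Young Early and Old Late. Of the 58 values of single members named by rule, 36 kept their call.

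Under the other alternatives all 36 members were called in Old Late IZ, and the counts in Young Early IZ, Old Early IZ and Old Late BZ stayed within 1.5 times of their values. No called value of a named member changed sign under any alternative. Medians near 0 did: that of Young Early BZ and of the Young IZ response over time without TMM scaling, that of the Early shams (-0.0266) without TMM scaling or with 1 of 3 libraries left out, and that of the Young shams (-0.004) without TMM scaling, with RNA integrity as a covariate, without the mitochondrially encoded genes, with batch 2 only or with 1 of 2 libraries left out. Of the values of single members named by rule, 58 of 58 kept their call in the DESeq2 test while with 1 library left out 304 calls were kept and 104 lost. With 3 libraries a group, absent calls do not show that levels were equal, and PDHX rests on as few as 18 counts in 1 library. The causes of these changes were not tested.

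For members called in Old Late IZ minus BZ, 8, the count was 3 with DESeq2 size factors, 3 with no count filter, 3 with the older edgeR quasi-likelihood method (chosen after seeing the data), 27 with limma-voom and 23 with the DESeq2 test. With no replicate block, that is without pairing by pig, it was 1, and 0 with the pig from the other label; the Young Early count went from 23 to 22 without the block, and the other 2 stayed at 0. With no count filter the Young IZ response over time gave 1 and the Old sham comparison over time 1. With preparation batch as a term, the Early sham comparison of the ages gave 4 members and a median of -0.2117, and the Young sham comparison over time 4; batch could not be fitted for the comparisons of Late shams between ages and of Old shams over time. With RNA integrity as a covariate the Young IZ response over time gave 1, the Early shams 3, the Late shams 0, the Young shams 3 and the Old shams 0. With Young Late libraries of batch 2 only, Young Late IZ gave 7, Young Late BZ 0, the Late IZ response between ages 4, the Young IZ response over time 0, the Late shams 0 and the Young shams 0. With limma-voom the Late shams gave 2 and the Young shams 4. The DESeq2 test gave 2 for the Early IZ response between ages, 7 for Early BZ, 6 for Late BZ, 6 for the Young IZ response over time, 3 for the Old one, 2 for the Late shams and 11 for the Young shams.

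With 1 library left out, the members called ranged from 8 to 15 in Young Late IZ, 13 to 23 in Old Early BZ and 1 to 9 in Young Late BZ. The range was 0 to 3 for the Early and 0 to 12 for the Late IZ response between ages, 0 to 17 and 0 to 5 for the BZ responses, 1 to 5 for the Young and 0 to 2 for the Old IZ response over time. Among shams it was 3 to 8 (Early), 0 to 2 (Late), 2 to 8 (Young) and 0 to 2 (Old), and between zones 10 to 18 in Young Early and 0 to 0 in Old Late. Medians ranged from -1.6929 to -1.4695 in Old Late IZ, from -1.08 to -0.7949 for the Late IZ response between ages, from -0.0919 to 0.1296 for the Early and from 0.1647 to 0.3477 for the Late shams, and from -0.4595 to -0.098 for Young Late IZ minus BZ.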

Other observations

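Neighbouring pathways were read from lists of names in the same comparisons. Of 17 fatty acid oxidation genes, 13 fell in Young Early IZ, 14 in Old Early IZ, 14 in Old Late IZ and 6 in Young Late IZ (edgeR), and none rose. Over all genes 12.0, 14.8, 24.0 and 13.0% were called lower in these 4 comparisons, in that order. In Old Late IZ the largest were those of ACSL1, which activates fatty acids, at -2.79 ± 0.36 (adjusted p = 3.51e-07), and CPT1B, the muscle carnitine palmitoyltransferase, at -2.14 ± 0.30 (adjusted p = 1.06e-06). Of 22 nuclear complex I genes, 21 fell in Young Early IZ, 11 in Old Early IZ, 18 in Old Late IZ and 2 in Young Late IZ, where 2 of 22 is below the share of all genes, and none rose. Without TMM scaling 7, 9, 12 and 3 fatty acid oxidation genes and 19, 7, 12 and 2 complex I genes fell, in the same order, and 1 gene of each list rose, in Old Late IZ and in Young Late IZ. Of all 14537 genes, 473, 564, 1060 and 822 were then called lower, in the same order. In Old Late IZ 5937 were called higher and in Young Late IZ 3072. Of 4 ketone body genes, OXCT1, the first enzyme of ketone oxidation, had a lower IZ response in Old than in Young at 1 week, at -1.63 ± 0.37 (adjusted p = 0.0169).

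Of 11 metabolic regulators, 9 fell and 1 rose in Old Late IZ, beside 24.0% of all genes called lower. PPARGC1A, a coactivator of mitochondrial genes, stood at -0.78 ± 0.29 (adjusted p = 0.0398) in the Young and -2.81 ± 0.30 (adjusted p = 2.62e-08) in the Old at 1 week, and its response differed between the ages by -2.03 ± 0.40 (adjusted p = 0.00934). ESRRA, a nuclear receptor that works with it, differed by -1.24 ± 0.29 (adjusted p = 0.0188). Over all genes 2.35% were called lower in that comparison, and of OXCT1, PPARGC1A and ESRRA the call of PPARGC1A alone held without TMM scaling. KLF15, a transcription factor known in mice for its control of branched-chain amino acid catabolism, fell by 2.74 ± 0.57 in the Young at 1 week (adjusted p = 6.36e-04) and by 3.51 ± 0.57 in the Old (adjusted p = 1.16e-05). In the sham hearts from 3 to 9 days, 6 of 15 other amino acid catabolism genes rose and none fell, beside 4.38% of all genes called higher, among them CTH and CBS of the transsulfuration pathway, at 2.47 ± 0.58 (adjusted p = 0.0118) and 2.29 ± 0.60 (adjusted p = 0.0215).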
